A study of Mus musculus with 2 samples.

Results

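The heat shock proteins and chaperones described here are the genes whose symbols begin with Hspa, Hspb, Hspd, Hspe, Hsph, Hsp90, Dnaja, Dnajb or Dnajc, the Cct genes with a number, Tcp1 and the heat shock factor Hsf2. The rule uses gene symbols and no measured value, over probe sets that name 1 gene in the platform annotation, and 83 such genes were found among 18193 genes, measured by 203 of 45101 probe sets. Hsp90ab1 and Hsf1 were not analysed here. The prefix Hspb also takes in Hspbp1 and Hspbap1, which encode no small heat shock protein, and both were kept. RNA came from regulatory T (Treg) cells, sorted from spleen as CD4+CD25hi cells after magnetic enrichment of CD4+ T cells, of mice 6 to 8 weeks old. One pool was from miR-125a KO mice and the other from wild-type littermates. Equal amounts of RNA from different mice were pooled within each genotype, and each pool was hybridised to 1 Affymetrix 430 2.0 array, which carries sets of short probes for mouse transcripts. The number of mice in a pool and the way the deletion was made are not given in the sources used here. With 1 array per genotype there was no replicate and no test, so every value below compares these pools and not the genotypes.

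The microRNA that the KO mice lack is shown because it defines the comparison. Its main mature form lies at chr17:17830817-17830840 on the + strand of GRCm38.p6, per RefSeq, and the capitals mark its seed, bases 2 to 8, the part that pairs with target messages.
miR-125a-5p: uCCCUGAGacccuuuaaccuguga

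Chaperones bind unfolded stretches of other proteins and let them fold, assemble, cross membranes or be degraded. Hsp70 proteins do so in cycles of ATP hydrolysis that J proteins (the Dnaja, Dnajb and Dnajc genes) start and that exchange factors such as Hsp110 reset. Hsp90 finishes the maturation of kinases and receptors, and the barrel-shaped chaperonins enclose a whole chain, in the cytosol (CCT, also called TRiC) or in mitochondria (Hsp60 with its lid Hsp10). Many of these genes are switched on by heat shock factor 1, which binds repeats of the letters GAA in alternating orientation in their promoters.

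Signals are MAS5 signals on the linear scale, and each gene was read from its probe set of highest mean signal. A log2 ratio is log2 of the miR-125a KO signal over the wild-type signal after 16.3 was added to both, so a value above 0 means higher in the KO pool. The only repeat measure on these arrays is a second probe set for the same gene. The spread given beside a ratio as the probe-set SD is that between such probe sets among genes of like signal, and it leaves out variation between mice. It was 0.37 for the dimmest and 0.18 for the brightest of 10 groups of genes. Levels of different genes are not compared, since each probe set has its own brightness.

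Of the 83 genes, 64 passed the minimum mean signal of 62.3 and 19 did not. None of the 64 was at least 2-fold higher in the KO pool, where 1.08% of all 10590 genes past the minimum were, and 0 were at least 2-fold lower, where 1.20% of all genes were. That split of all genes, 114 higher and 127 lower, was 145 higher and 105 lower after loess scaling. At 1.5-fold, 4 chaperone genes were higher (Hspd1, Hsph1, Dnajb4 and Dnajb5) against a background of 5.00%, and 3 were lower (Hspb1, Dnajc25 and Dnajb13) against 5.79%. After loess scaling or quantile normalization 1 of these 3 was still past 1.5-fold, Hspb1, and with the mean over probe sets 2 of the 4 higher genes were, Hspd1 and Hsph1. With the higher filter on signal 3 were higher and 0 lower. As shares of the 64 genes both counts were near the background. Ratios above 0 were found for 41 of 64 genes, or 64.1%, where 51.0% of all genes lay above 0. The median log2 ratio was 0.11 for the chaperones and 0.01 for all genes. It was 0.03 when a gene's probe sets were averaged, with 35 of 64 above 0. Of the 41 chaperone genes with several probe sets past the minimum, 18 had all of them on the same side of 0 (12 above and 6 below) and 23 did not.

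**Figure D1:**
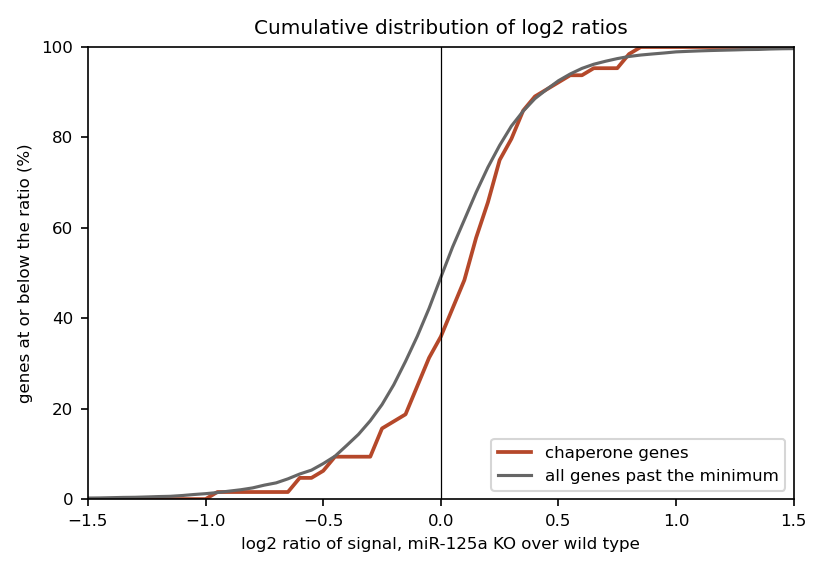
Cumulative share of genes (vertical axis, %) at or below each log2 ratio of miR-125a KO over wild type (horizontal axis), for the 64 chaperone genes and for all 10590 genes past the signal minimum. The chaperone curve lies right of the other near 0, with 35.9% of chaperones and 49.0% of all genes at or below 0. The curves cross near -0.95 and near 0.35, and again above that. At or below 0.35 lie 85.9% of chaperones and 85.8% of all genes.

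The mitochondrial chaperonin held the highest ratio among the 64 chaperone genes past the minimum. Hspd1, which encodes the Hsp60 barrel, had a signal of 9606 in the KO pool and 5488 in the wild-type pool. The KO signal was 1.75-fold higher, a log2 ratio of 0.81 with a probe-set SD of 0.18, from the 1 probe set that measured it. Among all genes past the minimum, 2.07% had a ratio at least as high. Hspe1, which encodes its Hsp10 lid, stood at 9866 in the KO pool and 7711 in the wild-type pool. Its log2 ratio was 0.35, and 0.34 from its other probe set. Both genes of this complex were thus higher in the KO pool by more than the probe-set SD. Both kept that direction in the 9 alternative settings. With 1 probe set for Hspd1, the other filters and choices of probe set could not change its value.

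Hspd1 and Hspe1 lie head to head on chromosome 1 and share a promoter, so its sequence is shown. Their RefSeq windows, 250 bases before to 50 after each start, overlap by 285 bases. The stretch is printed on the Hspe1 strand, chr1:55088029-55088106 (+) of GRCm38.p6, and Hspd1 reads it from the other strand. Capitals mark 18 bases in which the heat shock element pattern of 3 units (GAA, 2 letters of any kind, TTC, 2 letters of any kind, GAA, on either strand) matches at 2 overlapping places. The run ends 71 bases before the Hspe1 start and, read the other way, 126 bases before a start of Hspd1.
Hspe1 and Hspd1: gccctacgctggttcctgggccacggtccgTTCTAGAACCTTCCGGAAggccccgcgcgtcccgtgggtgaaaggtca

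A promoter window was available for 69 of the 83 genes. In the 250 bases before the start, 3 of these 69 genes (4.35%) held the 3-unit pattern, against 139 of 27025 genes in the table (0.514%). The stretch that Hspd1 and Hspe1 share was counted for each of them. Besides these genes the pattern was found in Dnajb6, at chr5:29735822-29735894 (+), printed with the match in capitals for comparison with the stretch above.
Dnajb6: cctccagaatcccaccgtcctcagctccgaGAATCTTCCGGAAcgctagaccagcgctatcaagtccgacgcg

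Dnajb6 encodes a J protein that keeps aggregation-prone chains soluble. It had 5661 in the KO pool and 5209 in the wild-type pool, with a log2 ratio of 0.12. So the 3 genes with this pattern, Hspd1 and Hspe1 by the same stretch and Dnajb6, had ratios of 0.81, 0.35 and 0.12. The sign for Dnajb6 turned to -0.05 when its 4 probe sets were averaged.

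All 8 subunit genes of the cytosolic chaperonin that passed the minimum had ratios above 0, where 51.0% of all genes did. This ring folds actin, tubulin and cell cycle regulators. The median was 0.21 and the ratios lay between 0.11 and 0.33. None was at 1.5-fold, where 5.00% of all genes were higher and 5.79% lower by that much. Each single ratio was within 2 probe-set SDs of 0. The direction held for each of the 8 genes in every alternative setting that gave it a value, and the lowest median was 0.16. Other pseudocounts and filters cannot turn the sign of a gene's ratio, so only the scalings and choices of probe set could have.
Cct3 was the highest, at 10270 in the KO pool and 8184 in the wild-type pool, with a log2 ratio of 0.33. Its 4 other probe sets past the minimum had ratios from 0.31 to 0.53. Cct7 stood at 12576 in the KO pool and 10473 in the wild-type pool, a ratio of 0.26, with 0.20 from its other probe set. The KO pool was higher in both, and in each probe set past the minimum.
Cct8 had 6426 in the KO pool and 5384 in the wild-type pool, with a ratio of 0.25. Cct6a had 12575 in the KO pool and 10848 in the wild-type pool, with 0.21 (0.39 from its other probe set), and Cct5 had 14034 in the KO pool and 12138 in the wild-type pool, also with 0.21. Tcp1, the founding subunit, had 16911 in the KO pool and 14810 in the wild-type pool, a ratio of 0.19. These 4 genes differed by similar small amounts. Cct2 had 19269 in the KO pool and 16919 in the wild-type pool, with a ratio of 0.19, but 1 of its probe sets had -0.29. Cct4 was lowest, at 12931 in the KO pool and 12006 in the wild-type pool, with 0.11 and probe sets from -0.46 to 0.39. For Cct2 and Cct4 the direction therefore depended on the probe set. Cct6b, a form known from testis, and Cct8l1 were below the minimum.

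**Figure D2:**
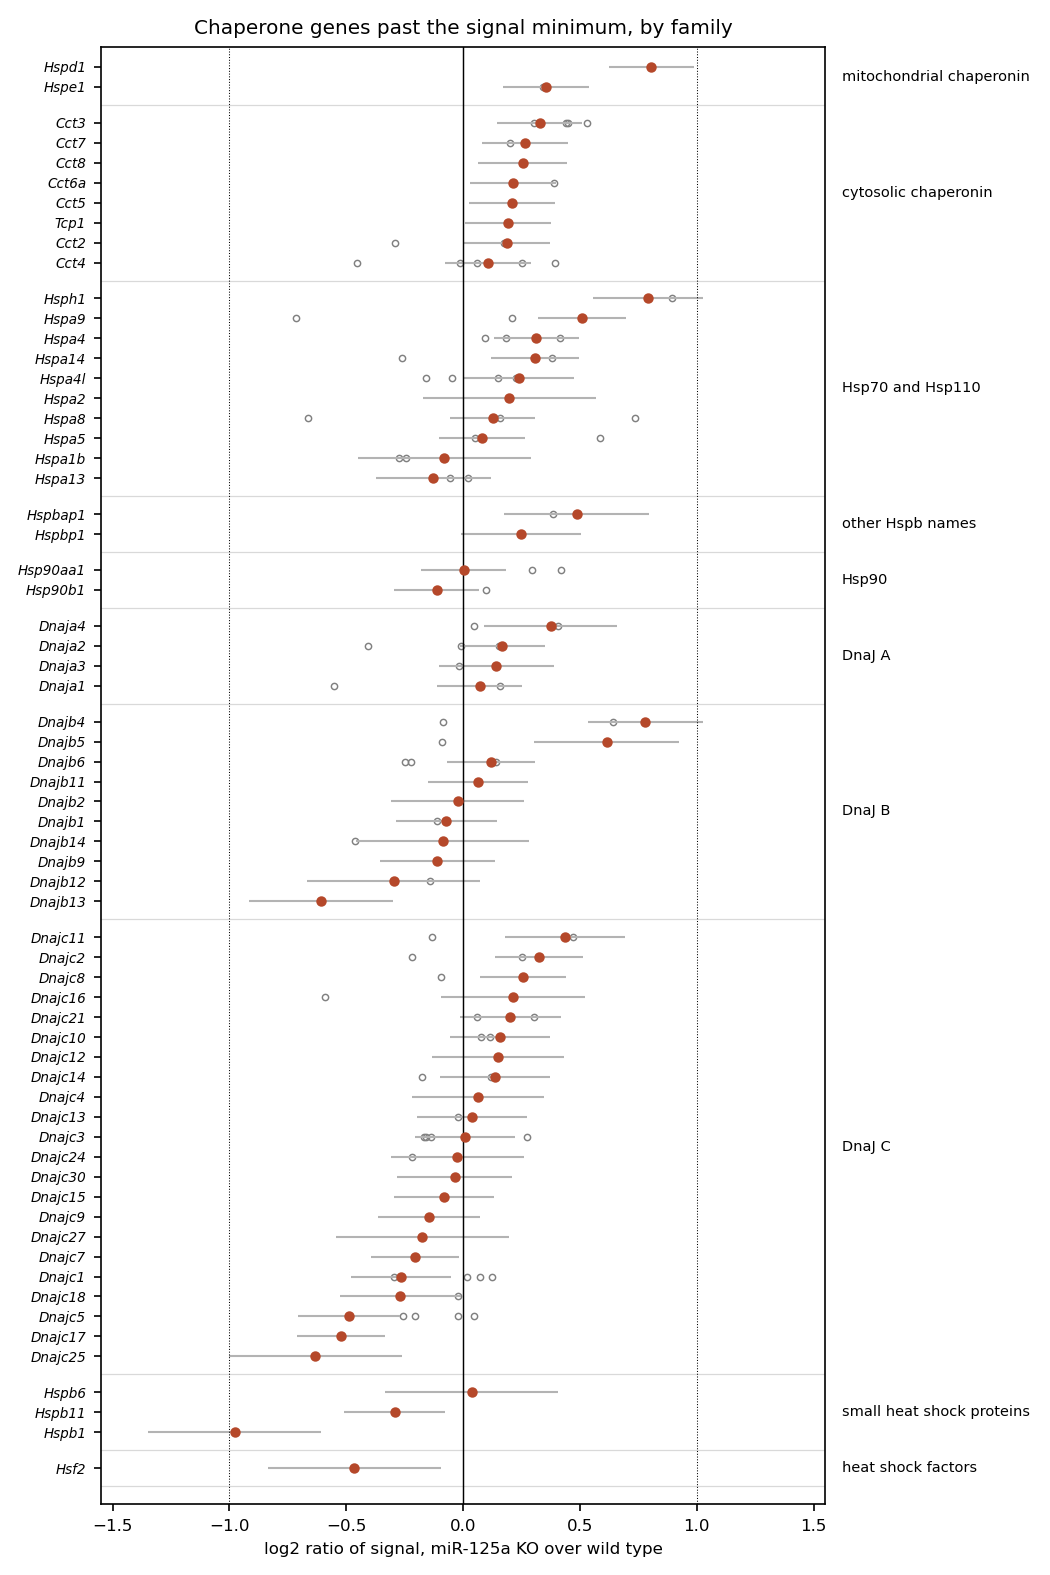
Log2 ratios (horizontal axis) of the 64 chaperone genes past the minimum, grouped by family. Filled points are the probe sets used, bars are 1 probe-set SD to each side, open circles are a gene's other probe sets past the minimum, and dotted lines mark 2-fold. The filled points of the chaperonin genes all lie right of 0, those of the DnaJ C genes on both sides, and none reaches a dotted line.

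Among the Hsp70 proteins and their Hsp110 relatives, 8 of 10 genes past the minimum had ratios above 0, against 51.0% of all genes. Their median was 0.22. The Hsp110 proteins, which exchange the nucleotide of Hsp70, were all higher in the KO pool. Hsph1 (Hsp105), a heat-inducible member, had 1602 in the KO pool and 918 in the wild-type pool. It was 1.73-fold higher, a log2 ratio of 0.79 with a probe-set SD of 0.24, and its other probe set had 0.89. This was the one of the 4 genes above 1.5-fold with more than 1 probe set past the minimum and all of these above 1.5-fold. Hspa4 (Apg-2) had 7970 in the KO pool and 6409 in the wild-type pool, with a ratio of 0.31 and its other probe sets at 0.09, 0.42 and 0.18. Hspa4l had 1538 in the KO pool and 1299 in the wild-type pool, a ratio of 0.24, with probe sets from -0.16 to 0.24. The 4 probe sets of Hspa4 went 1 way, those of Hspa4l both ways.

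Hspa9 (mortalin), the Hsp70 of mitochondria, had 5802 in the KO pool and 4077 in the wild-type pool. The log2 ratio was 0.51 with a probe-set SD of 0.19, the other probe sets past the minimum had 0.21 and -0.72, and the mean over these 3 was 0.00. The dimmest of them, at 290 in the KO pool and 487 in the wild-type pool, went the other way. Hspa14, which sits at the ribosome with Dnajc2 and meets new chains as they emerge, had 3816 in the KO pool and 3081 in the wild-type pool. Its ratio was 0.31, with 0.38 and -0.26 from dimmer probe sets. Dnajc2 itself had 5173 in the KO pool and 4125 in the wild-type pool, a ratio of 0.33, with its other probe sets past the minimum from -0.22 to 0.25. Both partners were higher in the KO pool by their brightest probe sets and mixed over all of them.

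Hspa8 (Hsc70), the constitutive Hsp70 of the cytosol, had 36177 in the KO pool and 33153 in the wild-type pool, with a log2 ratio of 0.13. Its other probe sets, in falling order of signal, had 0.16, -0.66 and 0.74, so the direction for Hspa8 was not settled by these arrays. Hspa2, known for its part in sperm development, had 229 in the KO pool and 198 in the wild-type pool, a ratio of 0.20 with a probe-set SD of 0.37. Hspa13, a small Hsp70 of the endoplasmic reticulum (ER), had 981 in the KO pool and 1073 in the wild-type pool, a ratio of -0.13. The difference of Hspa2 and that of Hspa13 were both within 1 probe-set SD.

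The classical stress-inducible Hsp70 genes gave low signals. Hspa1b had 190 in the KO pool and 201 in the wild-type pool, with a log2 ratio of -0.08 and its other probe sets at -0.24 and -0.27. Hspa1a was below the minimum, at 50.3 in the KO pool and 64.9 in the wild-type pool. These genes are near-identical copies, so their probe sets can share transcripts. Dnajb1 (Hsp40), the J protein induced with them by heat, had 2636 in the KO pool and 2773 in the wild-type pool, with a ratio of -0.07 and its other probe set at -0.11. The differences of Hspa1b and Dnajb1 were within 1 probe-set SD, and the sign for Hspa1b turned in 1 alternative setting. The heat-inducible Hsph1 was 1.73-fold higher.

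The Hsp90 genes lay near 0. Hsp90aa1, the inducible Hsp90 of the cytosol, had 16765 in the KO pool and 16740 in the wild-type pool, with a log2 ratio of 0.00. Its other probe sets past the minimum gave 0.30 and 0.42, at 11336 in the KO pool and 9236 in the wild-type pool for the first of these. Hsp90aa1 was therefore level or higher in the KO pool, depending on the probe set, and its sign turned in 2 alternative settings. Hsp90b1 (Grp94), the Hsp90 of the ER, had 9798 in the KO pool and 10602 in the wild-type pool, a ratio of -0.11, with 0.10 from its other probe set.

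**Figure D3:**
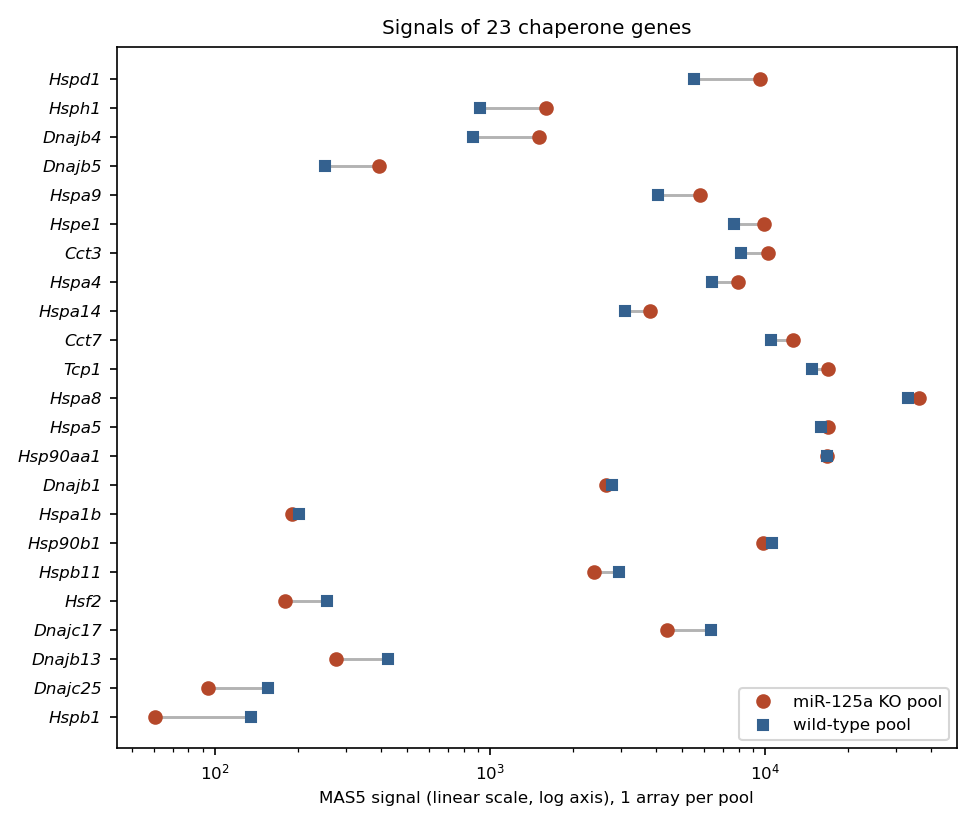
MAS5 signals of 23 chaperone genes on a log axis, with circles for the miR-125a KO pool and squares for the wild-type pool. Circles lie right of squares for the upper genes, from Hspd1 to Hspa5, marks coincide for Hsp90aa1, and circles lie left for the lower genes down to Hspb1.

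The J proteins went both ways. Across the 36 Dnaja, Dnajb and Dnajc genes past the minimum the median log2 ratio was 0.02. Of these, 19 were above 0 and 17 below, where 51.0% of all genes lay above 0. The 4 Dnaja genes, general partners of Hsp70, were all above 0 by their brightest probe sets, with a median of 0.15. Dnaja4 had 619 in the KO pool and 474 in the wild-type pool, a ratio of 0.37 that was 0.05 and 0.41 in its other probe sets. Dnaja2 had 12431 in the KO pool and 11062 in the wild-type pool, with 0.17, and Dnaja1 had 7159 in the KO pool and 6816 in the wild-type pool, with 0.07. Dnaja3, a J protein of mitochondria, had 1116 in the KO pool and 1011 in the wild-type pool, a ratio of 0.14. For Dnaja1 and Dnaja2 the mean over probe sets was below 0.

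Of 10 Dnajb genes, 4 were above 0 and 6 below, where 51.0% of all genes lay above 0. The median of -0.05 changed sign with 3 of the alternative settings. Dnajb4, a heat-inducible partner of Hsp70, had 1502 in the KO pool and 868 in the wild-type pool. It was 1.72-fold higher, a log2 ratio of 0.78 with a probe-set SD of 0.25, and its other probe sets had 0.64 and, at 83.1 in the KO pool and 89.2 in the wild-type pool, -0.09. Dnajb5, a close relative, had 394 in the KO pool and 252 in the wild-type pool, a ratio of 0.61 (probe-set SD 0.31). Its other probe set past the minimum had -0.09, so Dnajb5 rested on 1 probe set. Dnajb13, an axoneme protein of cilia and sperm tails, had 274 in the KO pool and 426 in the wild-type pool, a ratio of -0.61 from 1 probe set. Dnajb12, a J protein of the ER membrane, had 181 in the KO pool and 226 in the wild-type pool, with -0.30. Dnajb4 was thus higher by 2 of its 3 probe sets, and the 7 family members other than Dnajb4, Dnajb5 and Dnajb13 lay within 1 probe-set SD of 0.

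Shorter heat shock patterns were present in several of these promoters. A pair of units facing each other (GAANNTTC, N being any letter) was found in 13 of 69 chaperone genes, or 18.8%, against 7.73% of all genes, and a pair pointing apart (TTCNNGAA) in 7 of 69, or 10.1%, against 8.11%. Either pair lies inside the 3-unit pattern, and matches were taken on both strands. The shared stretch of Hspd1 and Hspe1 again counted for both genes. Hsph1 at chr5:149636337-149636399 (-), Dnajb4 at chr3:152193846-152193889 (-), Hspa1b at chr17:34959305-34959372 (-) and Hspb1 at chr5:135887792-135887859 (+) are shown because these inducible genes differed in their ratios. They were picked after their values were seen, and 1 pair in each is in capitals. The Hspb1 stretch holds a second match in lower case, farther from the start.
Hsph1: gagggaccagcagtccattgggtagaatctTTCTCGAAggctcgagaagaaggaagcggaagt
Dnajb4: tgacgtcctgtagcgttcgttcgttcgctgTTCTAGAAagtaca
Hspa1b: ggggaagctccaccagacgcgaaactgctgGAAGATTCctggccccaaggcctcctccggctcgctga
Hspb1: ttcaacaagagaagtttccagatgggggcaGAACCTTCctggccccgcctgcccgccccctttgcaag

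The log2 ratios beside these stretches were 0.79 for Hsph1, 0.78 for Dnajb4, -0.08 for Hspa1b and -0.98 for Hspb1. The KO signal of Hspb1, 60.3, lay under the minimum of 62.3, so the size of its difference is uncertain. The dimmest probe set of Dnajb4 had -0.09. A match is a run of letters and not a measured binding site.

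The 22 Dnajc genes past the minimum were divided, 11 above 0 and 11 below, where 51.0% of all genes lay above 0. Their median was -0.01, and its sign changed in 5 of the alternative settings. The Dnajc genes encode J proteins with specialised tasks. Dnajc11, part of the machinery that shapes the inner mitochondrial membrane, was highest, at 773 in the KO pool and 567 in the wild-type pool. Its log2 ratio was 0.44 with a probe-set SD of 0.26, and its other probe sets past the minimum had -0.13 and 0.47. Dnajc8, found with splicing factors, had 7652 in the KO pool and 6402 in the wild-type pool, a ratio of 0.26, with -0.09 from its other probe set. Dnajc21, which acts in maturation of the large ribosomal subunit, had 2964 in the KO pool and 2573 in the wild-type pool, a ratio of 0.20 with both other probe sets past the minimum above 0.
Dnajc25 was lowest but dim, at 94.4 in the KO pool and 155 in the wild-type pool, with a ratio of -0.63 and a probe-set SD of 0.37. Dnajc17, a J protein linked to splicing, had 4406 in the KO pool and 6341 in the wild-type pool. Its ratio was -0.52 with a probe-set SD of 0.19. The other probe sets of Dnajc17 were below the minimum and went the other way, the brighter at 89.0 in the KO pool and 22.5 in the wild-type pool. Dnajc5 (cysteine string protein), which acts in vesicle exocytosis, had 2583 in the KO pool and 3629 in the wild-type pool, a ratio of -0.49, with its 4 other probe sets between -0.26 and 0.05. Dnajc17 and Dnajc5 were the bright J protein genes with the lowest ratios.
Dnajc7, which passes clients between Hsp70 and Hsp90, had 3876 in the KO pool and 4473 in the wild-type pool, with -0.21. Dnajc9, a histone chaperone as well as a J protein, had 2263 in the KO pool and 2506 in the wild-type pool, with -0.15. Dnajc1 had -0.26, Dnajc18 -0.27 and Dnajc27 -0.17, while Dnajc12, Dnajc14 and Dnajc16 had 0.15, 0.14 and 0.21. For Dnajc1, Dnajc14 and Dnajc16 the direction depended on the probe set, with others past the minimum reaching 0.13, -0.18 and -0.59. The remaining Dnajc genes past the minimum (Dnajc3, Dnajc4, Dnajc10, Dnajc13, Dnajc15, Dnajc24 and Dnajc30) lay between -0.08 and 0.16.

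Small heat shock proteins hold unfolding chains in oligomers without ATP, and few of their genes gave a usable signal here. Of 8 measured, 3 passed the minimum. Hspb1 (Hsp25 in mice), the heat-inducible one, had 60.3 in the KO pool and 135 in the wild-type pool. The KO signal lay under the minimum of 62.3, and the gene passed through its wild-type signal, so the size of the difference is uncertain. The log2 ratio was -0.98 with a probe-set SD of 0.37, the lowest among the 64 chaperone genes past the minimum, and it ranged from -1.15 to -0.68 with the other pseudocounts. Its second probe set, below the minimum, had 5.83 in the KO pool and 27.6 in the wild-type pool. Hspb11, which despite its name acts in intraflagellar transport, had 2393 in the KO pool and 2936 in the wild-type pool, a ratio of -0.29 with a probe-set SD of 0.22. Hspb6 had 190 in the KO pool and 185 in the wild-type pool, with 0.04. Of the 2 genes that carry the prefix without belonging to the family, Hspbp1, an exchange factor of Hsp70, had 805 in the KO pool and 675 in the wild-type pool, a ratio of 0.25. Hspbap1 had 370 in the KO pool and 260 in the wild-type pool, with 0.49 and 0.39 from its other probe set past the minimum.

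Hsf2, a heat shock factor that acts mainly in development and together with heat shock factor 1, had 180 in the KO pool and 255 in the wild-type pool. Its log2 ratio was -0.47 with a probe-set SD of 0.37, and its other probe set was under the minimum.

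The 19 genes below the minimum were Cct6b, Cct8l1, Dnajb3, Dnajb7, Dnajb8, Dnajc5b, Dnajc5g, Dnajc6, Dnajc22, Dnajc28, Hspa1a, Hspa1l, Hspa12a, Hspa12b, Hspb2, Hspb3, Hspb7, Hspb8 and Hspb9. Their signals ran up to 67.5 in the KO pool, for Dnajb3, and up to 64.9 in the wild-type pool, for Hspa1a. At such signals MAS5 values scatter widely, so no ratio is given for them. Many are known from testis, muscle or brain.

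Grouped by where the proteins work, a grouping made after the values were seen, the mitochondrial genes had a median of 0.35 and the ER genes one of -0.10. The 7 mitochondrial genes were Hspd1, Hspa9, Dnajc11, Hspe1, Dnaja3, Dnajc30 and Dnajc15, in falling order of log2 ratio. Of them 5 were above 0, where 51.0% of all genes were. Dnajc15, of the inner membrane, had 2029 in the KO pool and 2148 in the wild-type pool, with -0.08, and Dnajc30 had 1032 in the KO pool and 1058 in the wild-type pool, with -0.04. The median was 0.06 when probe sets were averaged and lay between 0.31 and 0.39 in the other 8 settings. The 10 genes placed in the ER group all lay between -0.30 and 0.16, with 4 above 0, where 51.0% of all genes were. Their median stayed below 0 in the 9 alternative settings, the highest value being -0.05. The group was listed by hand and may leave out ER genes. Dnajc14, Dnajc16, Dnajc18 and Dnajc25, for example, were not placed in it and had 0.14, 0.21, -0.27 and -0.63.

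Hspa5 (BiP, Grp78), the Hsp70 of the ER and a standard gauge of ER stress, had 16877 in the KO pool and 15943 in the wild-type pool. Its log2 ratio was 0.08 with a probe-set SD of 0.18. Its other probe sets had 0.05 and, for the dimmest, 0.59. Dnajb9 (ERdj4) had 1043 in the KO pool and 1127 in the wild-type pool, with -0.11, and Dnajb11 (ERdj3) had 1932 in the KO pool and 1848 in the wild-type pool, with 0.06. Both are J proteins of Hspa5 that ER stress induces. Dnajc3 (p58IPK) had 1723 in the KO pool and 1716 in the wild-type pool, with 0.01. Dnajc10 (ERdj5), which reduces disulfide bonds, had 2257 in the KO pool and 2020 in the wild-type pool, with 0.16. Each of these genes differed by less than 1 probe-set SD.

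The ER stress element is the letters CCAAT and CCACG with 9 others between them, and it was searched on both strands. It was found before 3 of 69 chaperone genes (4.35%) and 35 of 27025 genes in all (0.130%). The 3 genes were Hspa5, Hsp90b1 and Dnajc3, with log2 ratios of 0.08, -0.11 and 0.01. The stretches with the element in capitals are shown beside the heat shock elements above as the other main control letters of chaperone promoters. They lie at chr2:34771995-34772073 (+), chr10:86705608-86705686 (-) and chr14:118937797-118937875 (+). Hsp90b1 holds a second match nearer its start.
Hspa5: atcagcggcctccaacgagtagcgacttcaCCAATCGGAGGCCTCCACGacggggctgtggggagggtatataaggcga
Hsp90b1: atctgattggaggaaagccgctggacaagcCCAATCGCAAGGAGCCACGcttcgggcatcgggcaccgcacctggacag
Dnajc3: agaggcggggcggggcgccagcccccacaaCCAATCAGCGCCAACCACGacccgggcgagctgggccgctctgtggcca

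The partners of Hsp70 and Hsp90 were listed from general knowledge. Of 30 cochaperone genes measured, all past the minimum, 25 had ratios above 0, where 51.0% of all genes did, and the median was 0.16. None was at least 2-fold higher or lower, 3 were at least 1.5-fold higher, where 5.00% of all genes were, and 0 were 1.5-fold lower. Ppp5c, a phosphatase bound to Hsp90, had 2837 in the KO pool and 1439 in the wild-type pool, a log2 ratio of 0.97 with a probe-set SD of 0.21. Fkbp8, a membrane-anchored immunophilin, had 1342 in the KO pool and 713 in the wild-type pool, with 0.90. Fkbp4, an immunophilin of steroid receptor complexes, had 1423 in the KO pool and 875 in the wild-type pool, with 0.69. Stip1 (Hop), the adaptor that joins Hsp70 to Hsp90, had 2470 in the KO pool and 1792 in the wild-type pool, with 0.46, and Ahsa1 (Aha1), which speeds the ATPase of Hsp90, had 2808 in the KO pool and 2085 in the wild-type pool, with 0.43. These 5 genes were higher in the KO pool by more than the probe-set SD. For genes in this and the other related lists, only the probe set of highest mean signal is given, without a check against others. The lowest of the list were Sil1, the exchange factor of Hspa5, at -0.21, Unc45a at -0.14 and Ahsa2 at -0.01. Hspbp1 is also in this list.

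**Figure D4:**
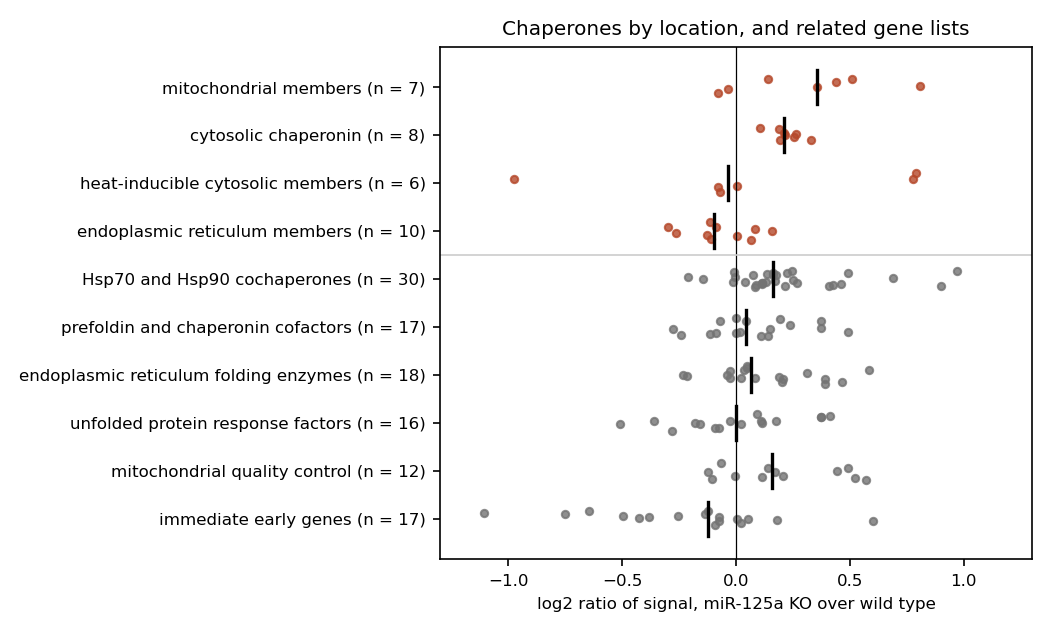
Log2 ratios (horizontal axis) of chaperone genes by location (coloured, above the line) and of genes in 6 related lists (grey), with 1 point per gene past the minimum and a black bar at each median. Among the groups by location, medians run from 0.35 for the 7 mitochondrial members to -0.10 for the 10 endoplasmic reticulum members. Among the lists they run from 0.16 for the 30 cochaperones to -0.12 for the 17 immediate early genes.

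Prefoldin hands actin and tubulin to the cytosolic chaperonin. Of 17 genes of prefoldin, its relatives and the tubulin cofactors, 12 were above 0, where 51.0% of all genes were, with a median of 0.04. At 1.5-fold there were 0, where 5.00% of all genes were higher and 5.79% lower by that much. Pfdn2, Pfdn4 and Pfdn6 had 0.49, 0.37 and 0.37, while Pdcl, Pfdn5 and Vbp1 had -0.28, -0.24 and -0.12. Subunits of the same prefoldin complex therefore lay on both sides of 0.
Of 18 ER folding enzymes past the minimum, 13 were above 0, against 51.0% of all genes, and the median was 0.07. The number at 1.5-fold was 0, against 5.00% higher and 5.79% lower among all genes. Sdf2l1, a cofactor of Hspa5, had 3119 in the KO pool and 2077 in the wild-type pool, with a log2 ratio of 0.58, just under 1.5-fold. Pdia5 and Pdia6 had 0.46 and 0.39, and Pdia4, Sdf2 and Erp44 had -0.23, -0.22 and -0.04.
Of 16 genes of the unfolded protein response past the minimum, 8 were above 0 and 8 below, against 51.0% of all genes above 0. The median was 0.00. None was at 1.5-fold, against 5.00% higher and 5.79% lower among all genes. Ern1, the sensor IRE1, had 0.41, Atf4 0.37 and Edem1 0.37. Ddit3 (CHOP), a late target of ER stress, was lowest at 1283 in the KO pool and 1833 in the wild-type pool, with -0.51, followed by the processing proteases Mbtps2 and Mbtps1 at -0.36 and -0.28. Xbp1, the main transcription factor of this response, had 14243 in the KO pool and 15900 in the wild-type pool, with -0.16.
Of 12 genes of mitochondrial quality control, 8 were above 0, against 51.0% of all genes, with a median of 0.16. At 1.5-fold there were 0, against 5.00% higher and 5.79% lower among all genes. Htra2, a protease, had 0.57, Phb2, a prohibitin, 0.52, and Trap1, the Hsp90 of mitochondria, 0.49 at 1533 in the KO pool and 1086 in the wild-type pool. Afg3l2, Yme1l1 and Clpx, proteases or their parts, had -0.12, -0.11 and -0.06. Trap1 and Grpel1 stand in both this list and that of cochaperones.

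Handling of cells can induce heat shock genes together with immediate early genes, so immediate early genes are given beside them. Of 17 immediate early genes past the minimum, 5 were above 0, where 51.0% of all genes were, and 12 below, with a median of -0.12. Of these, 1 was at least 1.5-fold higher and 3 were at least 1.5-fold lower, where 5.00% and 5.79% of all genes were. Btg2 was at least 2-fold lower in the KO pool, at -1.11, Jun and Zfp36 had -0.75 and -0.65, and Atf3 was highest at 0.60, followed by Egr2 at 0.18 and Junb at 0.05. Their part in the chaperone values was not tested.

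All 3 T cell markers and 5 Treg markers measured passed the minimum in both pools. Foxp3, the defining factor of Treg cells, had 694 in the KO pool and 1631 in the wild-type pool, a log2 ratio of -1.21. The other Treg markers had ratios of 0.45 for Ikzf2, 0.27 for Il2ra, 0.02 for Ctla4 and -0.08 for Tnfrsf18, and the T cell markers 0.01 for Cd3g, -0.15 for Cd4 and -0.41 for Cd3e. Whether the lower Foxp3 bears on any chaperone value was not tested. Of 6 myeloid markers, 4 passed the minimum and all 4 were lower in the KO pool. One of these, Itgax, had 47.6 in the KO pool, under the minimum, and 79.7 in the wild-type pool. Lyz2 and Itgam were below the minimum and higher in the KO pool. Lyz2 had 61.0 in the KO pool and 30.8 in the wild-type pool, and Itgam 6.86 and 1.08. The summed signal over the 6 was 432 in the KO pool and 662 in the wild-type pool. Of 4 B cell markers only Cd79b passed, the summed signals being 280 in the KO pool and 270 in the wild-type pool, and all 3 neutrophil markers were below the minimum in summed signals of 35.2 in the KO pool and 145 in the wild-type pool. The 3 markers of CD8 T and NK cells past the minimum were lower in the KO pool. Over the list the sums were 5710 in the KO pool and 8805 in the wild-type pool, of which Klrd1 gave 5065 and 7919. Cd8a had 295 in the KO pool and 435 in the wild-type pool, and Cd8b1 332 and 438. Ncr1 was below the minimum, at 18.0 in the KO pool and 14.0 in the wild-type pool. The 4 platelet markers summed to 2910 in the KO pool and 2337 in the wild-type pool. Of these, 3 were higher in the KO pool and Itga2b was lower, at 394 in the KO pool and 536 in the wild-type pool. Whether these marker signals came from other cells, and whether they bear on any chaperone value, was not tested. In a bulk pool fewer cells of a type and less RNA per cell cannot be told apart.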

How the data were processed

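Treg cell RNA of 1 miR-125a KO pool and 1 wild-type pool was measured on 1 array each. The authors deposited log2 values for 45101 probe sets, made with MAS5 per the submitters' processing notes, where its version is not given. On the linear scale both arrays had the same 2% trimmed mean, 500.0, and the lowest value, a signal of 1, is a bound. The number of arrays limits the precision. The platform annotation gave a single gene for 34945 probe sets and several for 932. All 83 chaperone genes were found in RefSeq (GRCm38.p6) under the same symbol. The pseudocount of 16.3 is the 25th percentile of all signals, and the minimum of 62.3 the median over probe sets of the mean signal. The probe-set SD is the SD of the difference between the 2 brightest probe sets of a gene, over 5037 genes in 10 groups of signal, divided by the square root of 2. Functions were tested on simulated data. Python 3.11.15, pandas 2.3.3, numpy 2.4.6 and statsmodels 0.14.6 were used. The topic, its rule by symbol and the lists were chosen with earlier results of these data known. Every chaperone gene could be named, with the 3 highest and 3 lowest of each family and list. Alternatives were 3 other scalings, 2 other pseudocounts, 2 other filters, 2 other choices of probe set, and folds of 1.5 and 3.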

Additional observations from a re-analysis of the deposited data

How the results depend on the processing

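With no filter on low signals, 3 of 83 chaperone genes passed 2-fold upwards and 2 downwards, all of them below the minimum used elsewhere, and the median was 0.063. With a pseudocount of 1, 1 gene, Hspb1, passed 2-fold downwards, at -1.15. At 1.5-fold the counts were 4 higher and 3 lower, and at 3-fold both were 0. The 1.5-fold counts were 4 higher and 1 lower after loess or quantile normalization, 4 and 2 with equal medians, 3 and 1 with the median signal as pseudocount, 7 and 12 with no filter, 3 and 0 with the higher filter, 2 and 3 with the mean over probe sets and 3 and 2 without the probe sets marked as matching more than 1 transcript. The median of 0.11 was 0.15 with equal array medians, 0.032 with the mean over probe sets and 0.067 without the probe sets marked as matching more than 1 transcript, and stayed above 0 in the 9 settings. Of the 64 genes, 52 kept their sign in each setting that gave a value and 12 did not, namely Dnaja1, Dnaja2, Dnajb2, Dnajb5, Dnajb6, Dnajc3, Dnajc16, Dnajc24, Dnajc30, Hsp90aa1, Hspa1b and Hspa9. Of 553 such values, 11 moved by 1 probe-set SD or more. Many of the 553 could not move. The other filters leave a gene's ratio as it was, and so does averaging for genes with 1 probe set past the minimum. Other pseudocounts change the size of a ratio but cannot turn its sign. These counts are therefore a weak measure of stability. The Dnajb, Dnajc, Hsp90, heat-inducible and unfolded protein response medians changed sign in at least 1 setting. The causes were not tested. Signals near the minimum limit Hspb1, Dnajc25 and Hsf2. No paired analysis was possible because there is 1 sample per genotype.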
